A study of Mus musculus with 18 samples.

Results

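The guanylate-binding proteins (GBPs) were examined as a family of 10 genes, Gbp2, Gbp3, Gbp4, Gbp5, Gbp6, Gbp7, Gbp8, Gbp9, Gbp10 and Gbp11, chosen by name from the 20615 genes of an RNA-seq table of bone marrow-derived macrophages (BMDMs). BMDMs are macrophages grown from bone marrow cells in medium with M-CSF, here for 7 days, from mice 7 to 12 weeks old, which were all female by the study's methods. The 18 samples form 6 groups of 3. They come from C57BL/6 (B6) mice and from C57BL/6.NOD-Aec1Aec2 mice (SjSS, the Sjögren's syndrome-susceptible strain), and in each strain 1 group had no stimulus (control), 1 received apoptotic cells (AC) and 1 received CpG. The ACs were thymocytes killed with dexamethasone, added at 5 per BMDM for 2 h and washed off, with RNA taken 3 h later by the labels, and CpG, an oligonucleotide that stimulates Toll-like receptor signalling, was given at 1 µM for 6 h. The paper took thymi from mice of both strains and does not state which donors served each RNA-seq group. If donors matched the BMDMs, the strain of the BMDMs and that of the ACs cannot be told apart in the AC comparisons between strains. All SjSS groups carry Aec1 and Aec2, stretches of NOD chromosome bred into B6, and Aec1 lies on chromosome 3, as does one of the Gbp clusters. How far the interval reaches is not given in the sources used here, so whether the strains differ in sequence at these genes was not tested.

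GBPs are large GTPases of the dynamin superfamily that interferons switch on, most strongly interferon-gamma (IFN-γ), and that are among the most inducible proteins of an activated macrophage. They gather on the vacuoles and membranes of bacteria and parasites, help to break them open, and expose their lipopolysaccharide and DNA to the caspase-11 and AIM2 inflammasomes. In the mouse the genes sit in a cluster on chromosome 3 and another on chromosome 5. Their promoters are bound by interferon regulatory factors.

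Total estimated counts ran from 30688336 to 57139662 a sample, with a median of 47912525, and a gene needed 0.209 CPM (counts scaled to a common library size, here with TMM totals) in 3 samples to be tested. Of the 10 members, 8 were over that minimum in all 18 samples, while Gbp11 passed only through the AC treated SjSS group and Gbp10 had 2 samples over it outside that group. Those 2 genes therefore had to differ in that group, so they are described by their counts, and counts of members are also given for the remaining 8. Defining macrophage markers were abundant in every group, with Csf1r at means of 1743 to 2532 CPM. T cell receptor complex genes were near 0: the means of Cd3d, Cd3e, Cd3g and Trac ranged from 0 to 0.127 CPM in the 6 groups. The paper counts 3 mice for each strain, and whether samples with the same number in different treatments came from the same mouse is not given in the sources used here. Replicate 2 of the CpG treated SjSS group had the lowest value of its group for all 8 of the members measured in every sample, at 47.3% (Gbp4) to 67.1% (Gbp2) of the mean of the other two samples, and results on that group that move without it are also given without it.

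The chromosome 3 cluster holds 4 members in 144.0 kb on the plus strand (mm10, chromosome 3, 142493978 to 142638008). In order along the chromosome they are Gbp5 (142493978 to 142522344), Gbp7 (142530342 to 142550149), Gbp3 (142560026 to 142573209) and Gbp2 (142620602 to 142638008). Gbp2b, a family member outside the 10, lies between Gbp3 and Gbp2 and had 3 to 63 counts over the 3 samples of a group. The chromosome 5 cluster holds 6 members in 332.3 kb on the minus strand (105014150 to 105346472). They are Gbp8 (105014150 to 105139540), Gbp9 (105077630 to 105139539), Gbp4 (105115767 to 105139586), Gbp10 (105215699 to 105239533), Gbp6 (105270702 to 105293698) and Gbp11 (105323042 to 105346472), which is annotated as a polymorphic pseudogene. In GENCODE M21, transcripts of Gbp8 and Gbp9 begin in the first exon of Gbp4. The 3 genes therefore share 60 or 61 exonic bases, which by themselves do not tell the genes apart. Gm43302 overlaps Gbp6 and Gbp10, and Gm43802 lies within Gbp7, on the same strands.

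Within the chromosome 5 cluster the coding sequences were near copies of each other, and within the chromosome 3 cluster they were not. The 15 pairs of chromosome 5 members were identical at 90.01 to 98.36% of aligned coding bases (median 90.93%), against 65.91 to 79.31% (median 66.66%) for the 6 pairs on chromosome 3. Gbp6 and Gbp10 were the closest pair, with 30 mismatches over 1833 bases. Of all stretches of 1 read length in the transcripts of Gbp10, 60.6% also occurred in another member, nearly all of them in Gbp6. The share was 37.1% for Gbp6, 4.98% for Gbp11, 4.28% for Gbp8, under 2% for Gbp3, Gbp4, Gbp7 and Gbp9, and 0 for Gbp2 and Gbp5. Values of Gbp10, and to a lesser degree of Gbp6, thus depend on how the authors' estimate divided shared reads. The pair below, coding bases 217 to 317 in each gene, shows how little separates the 2 genes over a read of that length, and the capital marks the 1 base that differs.
Gbp6: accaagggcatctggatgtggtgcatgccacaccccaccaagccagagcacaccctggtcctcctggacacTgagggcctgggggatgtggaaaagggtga
Gbp10: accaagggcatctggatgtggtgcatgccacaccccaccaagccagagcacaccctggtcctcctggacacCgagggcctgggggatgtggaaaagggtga

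**Figure D1:**
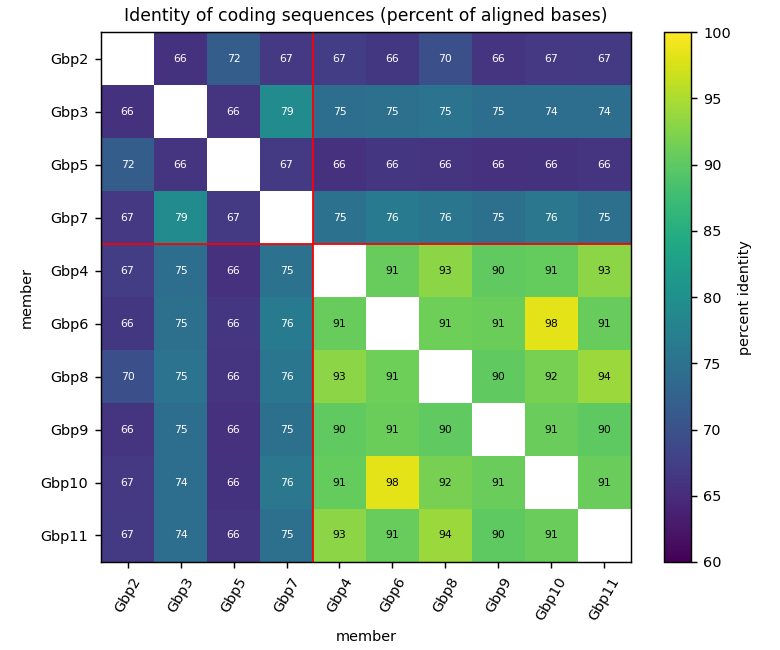
Percent identity of the aligned coding sequences for each pair of members, with red lines between the chromosome 3 members (first 4) and the chromosome 5 members (last 6). The block of chromosome 5 pairs sits at 90.01% or more, and pairs on chromosome 3 at 65.91 to 79.31%.

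Promoter sequences are shown for the chromosome 3 members because the RefSeq promoters at hand (GRCm38.p6) matched only these 4 of the 10 members. In the 250 bases before the start site, the letters GAAA, 2 bases of any kind and GAAA, the core of the interferon-stimulated response element, were searched on both strands and occurred in the first listed promoter of all 4, against 978 of 32851 promoters (2.98%). Distances are from the RefSeq start sites, which differ from the gene starts above: 142530336 for Gbp7, 142620663 for Gbp2, 142496934 for Gbp5 and 142560044 for Gbp3. The match began 53 bases before that site for Gbp7, 59 for Gbp2, 165 for Gbp5, and 45 and 39 (overlapping) for Gbp3. By the deposited coordinates the matches of Gbp2 and Gbp5 lie inside the gene, and 12 bases of the Gbp2 window are exonic in GENCODE M21. A second listed start of Gbp3 had no match. The promoter of Gbp2b, the neighbour outside the 10 members with few counts, had 1 match, 137 bases before its start site. The letters TTC, 3 bases of any kind and GAA, those of the gamma-activated sequence, which read the same on both strands, occurred in the promoters of Gbp5 and Gbp7 and in those of neither Gbp3 nor Gbp2, against 2306 promoters (7.02%). Such a match is a description and no evidence of binding. In the windows of 60 bases below, all on the plus strand of mm10, capitals mark the first set of letters, here in reverse complement.
Gbp5, chr3:142496744-142496803: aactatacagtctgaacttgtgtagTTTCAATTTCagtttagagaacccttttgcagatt
Gbp7, chr3:142530258-142530317: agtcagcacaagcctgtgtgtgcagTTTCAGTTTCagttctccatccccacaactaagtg
Gbp3, chr3:142559966-142560025: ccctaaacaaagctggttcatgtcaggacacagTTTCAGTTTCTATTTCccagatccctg
Gbp2, chr3:142620554-142620613: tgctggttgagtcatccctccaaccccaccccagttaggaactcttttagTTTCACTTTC

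In control BMDMs most members were expressed at a low to moderate level, and the strains were close. In bulk samples like these, fewer cells of a type and less RNA per cell cannot be told apart. Gbp7, which has been linked to assembly of the phagocyte NADPH oxidase, had 31.5, 27.6 and 24.8 CPM in B6 and 18.2, 18.6 and 16.0 CPM in SjSS controls. Gbp8 had 10.1, 11.4 and 7.96 CPM in B6 and 5.29, 5.12 and 6.44 CPM in SjSS controls. In both genes every SjSS control lay under every B6 control. By edgeR's quasi-likelihood test the log2 fold change of SjSS against B6 was -0.67 ± 0.17 (SE) for Gbp7 (adjusted p = 0.00814) and -0.80 ± 0.23 for Gbp8 (adjusted p = 0.0175). Neither reached the fold threshold, since calls here required both an adjusted p below 0.05 and a change of more than 1.3 on the log2 scale. Thus 0 of 10 members (and 0 of the 8 measured in every sample) were called in either direction between control BMDMs, where 1.3% of all tested genes were called higher and 0.716% lower in SjSS. DESeq2 also called 0, and 3 members had an unadjusted p under 0.05 by edgeR. Without the fold threshold, 2 members were lower and 0 higher, against 10.6% and 9.04% of all genes. For the other 6 members measured in every sample the log2 difference lay between -0.31 (Gbp2, edgeR adjusted p = 0.139) and 0.40 (Gbp4, edgeR adjusted p = 0.426).

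Per kilobase of exon, Gbp2 had the highest level of the family in every group, and Gbp4, Gbp10 and Gbp11 were at the low end in the controls. Gbp2 is one of the GBPs best known for coating bacteria, and stood at 8.11 ± 0.50 CPM per kb in B6 and 6.55 ± 0.72 CPM per kb in SjSS controls (mean ± SD, n = 3). In B6 controls it was followed by Gbp3, Gbp7, Gbp9, Gbp6 and Gbp8 (5.86, 4.98, 4.17, 3.39 and 2.86 CPM per kb), and each neighbour in that run overlapped the next. Gbp5, known for a role in inflammasome activation, was at 0.589 CPM per kb and ranked seventh, Gbp4 at 0.128 CPM per kb ranked eighth, and both were apart from their neighbours. The order changed with AC in SjSS BMDMs, where Gbp5 moved to the second place at 192.9 ± 9.76 CPM per kb behind Gbp2 at 348.4 ± 6.30 CPM per kb. Gbp3, Gbp6, Gbp7, Gbp9, Gbp4 and Gbp8 followed at 131.0, 85.7, 59.6, 22.7, 12.6 and 2.16 CPM per kb, and no 2 neighbours overlapped. With CpG, Gbp3 and Gbp6 followed Gbp2 in both strains and overlapped each other.

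**Figure D2:**
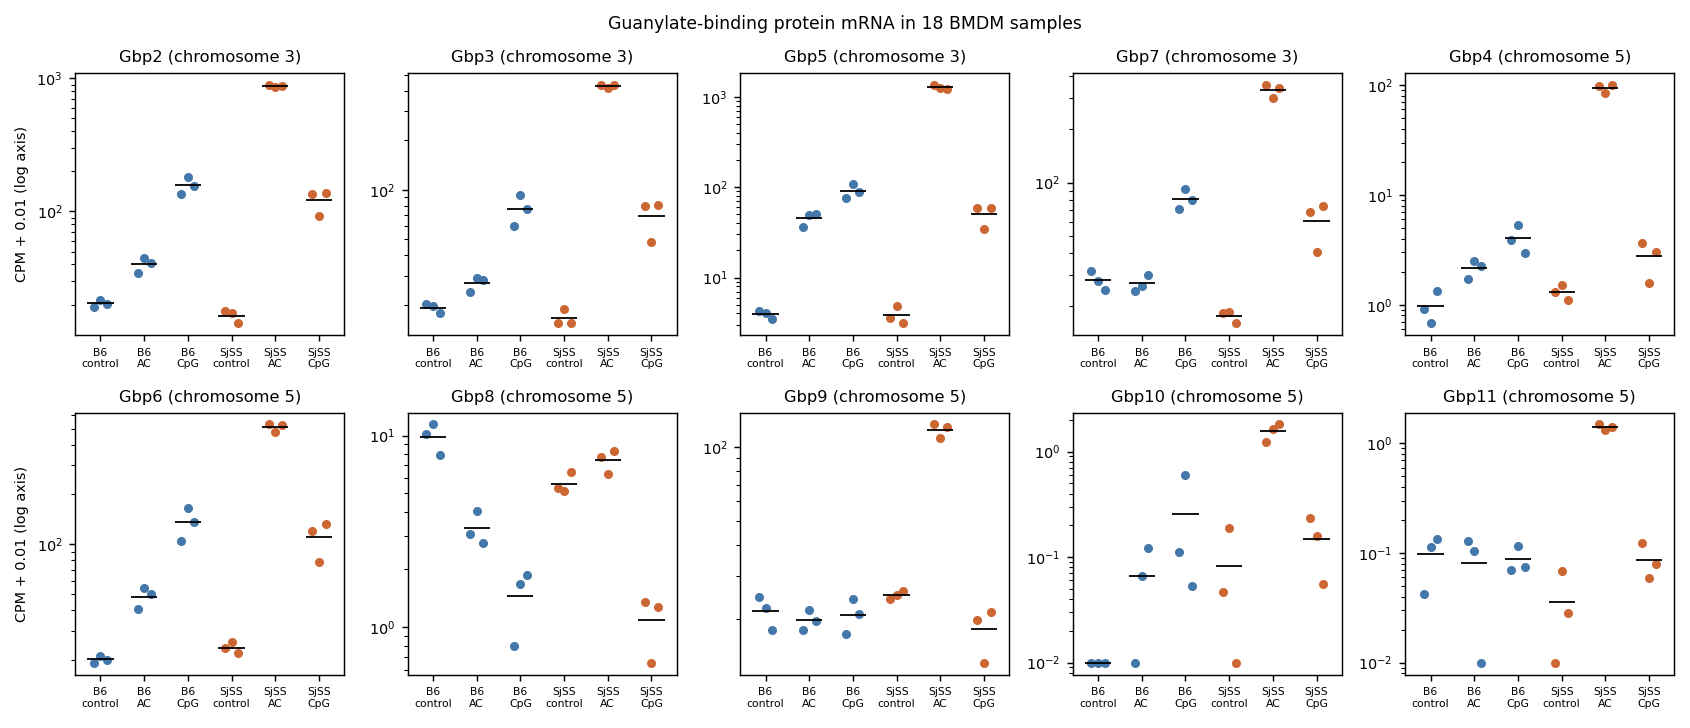
Level of each member in the 18 samples, in CPM with 0.01 added on a log axis that differs between panels, with B6 in blue, SjSS in orange and a black bar at the mean of 3 samples. The AC treated SjSS samples stand above all others for every member except Gbp8, which was highest in B6 controls.

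ACs moved few members in B6 BMDMs, where Gbp5 stood out. Gbp5 had 4.21, 4.09 and 3.43 CPM in control B6 and 36.3, 49.7 and 50.6 CPM in AC treated B6 BMDMs. Each AC sample was above every control, and the log2 fold change was 3.54 ± 0.21 (11.6-fold, edgeR adjusted p = 2.33e-10). Gbp8 moved the other way, from 10.1, 11.4 and 7.96 CPM to 3.06, 4.05 and 2.74 CPM, with no overlap and a log2 fold change of -1.58 ± 0.23 (edgeR adjusted p = 2.63e-05). These 2 genes were the 1 member called higher and the 1 called lower of 10, where 2.43% of all tested genes were called higher and 2.04% lower, and both are among the 8 measured in every sample. Gbp2, Gbp3, Gbp4 and Gbp6 were also above the controls in every AC sample, at a smaller size. Their log2 fold changes were 0.98, 0.49, 1.15 and 1.26 (edgeR adjusted p from 8.93e-06 to 0.0252), all short of the fold threshold. At any fold, then, 5 members were higher and 1 lower, against 20.0% and 18.3% of all genes. Gbp7 and Gbp9 overlapped with their controls, with log2 fold changes of -0.06 (95% interval -0.38 to 0.26, edgeR adjusted p = 0.816) and -0.13 (-0.41 to 0.16, edgeR adjusted p = 0.537). Without B6 control replicate 3 Gbp4 was also called (log2 fold change 1.43), and without AC treated B6 replicate 1 Gbp6 was (1.37), which made 2 members called higher.

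In SjSS BMDMs ACs raised the family broadly. Of the 10 members 9 were called higher (7 of the 8 measured in every sample) and 0 lower, where 7.09% of all tested genes were called higher and 5.83% lower. The median log2 fold change was 4.56 over those 8 members and -0.02 over all tested genes. Gbp5 went from 3.56, 4.85 and 3.10 CPM in control SjSS to 1355, 1251 and 1236 CPM in AC treated SjSS BMDMs, a log2 fold change of 8.42 ± 0.24 (342-fold, edgeR adjusted p = 1.48e-15). It was the member with the largest fitted change. Gbp2 went from 17.9, 17.2 and 14.4 CPM to 890, 859 and 881 CPM, a log2 fold change of 5.74 ± 0.16 (edgeR adjusted p = 8.72e-16).

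Gbp3 and Gbp7, the remaining chromosome 3 members, rose less steeply than Gbp5 but from higher controls. Gbp3 had 15.4, 18.7 and 15.5 CPM in control and 434, 416 and 434 CPM in AC treated SjSS BMDMs (log2 fold change 4.70 ± 0.18, edgeR adjusted p = 7.34e-14). Gbp7 had 18.2, 18.6 and 16.0 CPM in control and 356, 302 and 345 CPM in AC treated SjSS BMDMs (4.25 ± 0.18, edgeR adjusted p = 1.84e-13). For both, every AC sample was far above every control.

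On chromosome 5, Gbp4 started lowest of the members measured in every sample and rose by the most of that cluster's 4. It had 1.29, 1.51 and 1.11 CPM in control and 98.4, 84.3 and 99.8 CPM in AC treated SjSS BMDMs, a log2 fold change of 6.20 ± 0.25 (73.5-fold, edgeR adjusted p = 1.03e-13). Gbp6 went from 23.8, 25.6 and 22.1 CPM to 529, 475 and 526 CPM (4.42 ± 0.19, edgeR adjusted p = 1.75e-13). The rise of Gbp9 was smaller, from 24.0, 24.9 and 25.9 CPM to 123, 109 and 120 CPM (2.24 ± 0.14, edgeR adjusted p = 9.68e-11). No AC sample overlapped with the controls in any of the 3. Gbp8 did overlap, with 5.29, 5.12 and 6.44 CPM in control and 7.75, 6.27 and 8.26 CPM in AC treated SjSS BMDMs, and its log2 fold change of 0.40 (95% interval -0.05 to 0.85) did not pass the test (edgeR adjusted p = 0.147).

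Gbp10 and Gbp11 were nearly silent outside AC treated SjSS BMDMs. Gbp10 had 47, 77 and 80 counts in AC treated SjSS and 2, 6 and 0 counts in control SjSS BMDMs, a ratio of scaled counts of 27.9 (exact 95% interval 13.9 to 65.6, for counting error only). Gbp11 had 57, 62 and 62 counts against 0, 2 and 1, a ratio of 66.1 (22.3 to 323). Both are counted among the members called here, but the filter kept them because of this group, so their calls lend no support. The level of Gbp10 moved with that of its near copy: counts of Gbp10 were 0 to 0.694% of those of Gbp6 in the 18 samples, and 0.229 to 0.341% in AC treated SjSS BMDMs, and the part that divided reads have in this was not tested.

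The response to ACs differed between the strains for nearly every member, by the test of the difference itself. The interaction of strain and AC was called higher in SjSS for 9 of 10 members and for all 8 of those measured in every sample, where 4.76% of all tested genes were called higher and 2.77% lower. It was 4.75 ± 0.20 on the log2 scale for Gbp2, 4.88 ± 0.30 for Gbp5, 5.05 ± 0.41 for Gbp4 and 4.31 ± 0.24 for Gbp7 (edgeR adjusted p from 5.86e-12 to 1.35e-08). For Gbp8, lower with ACs in B6 and not so in SjSS BMDMs, the interaction was 1.98 ± 0.33 (edgeR adjusted p = 9.17e-05). Gbp10 did not pass (edgeR adjusted p = 0.744) and had 0 counts in the B6 controls, against which no fold can be set.

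**Figure D3:**
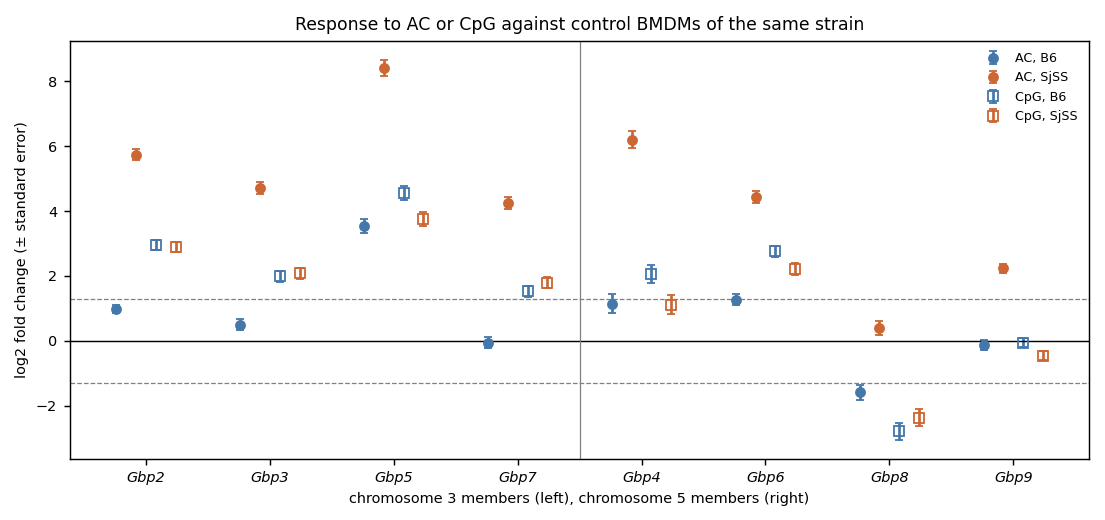
Log2 fold change with its standard error for AC (filled circles) and CpG (open squares) against control BMDMs of B6 (blue) and SjSS (orange), for the 8 members measured in every sample; dashed lines stand at 1.3 and -1.3. The AC response in SjSS is the highest point of each member, up to 8.42 for Gbp5, while Gbp8 falls below 0 in the other 3 responses.

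Set side by side, AC treated SjSS BMDMs had more mRNA of every member than AC treated B6 BMDMs, with no overlap between samples for the 8 measured in all of them. In this comparison 9 of 10 members (7 of those 8) were called higher in SjSS and 0 lower, where 6.24% of all tested genes were called higher and 2.69% lower. Gbp4 had 1.71, 2.48 and 2.25 CPM in B6 and 98.4, 84.3 and 99.8 CPM in SjSS with ACs, and its log2 difference of 5.45 ± 0.23 (edgeR adjusted p = 7.20e-13) was the largest. It was followed by Gbp5 at 4.81 ± 0.20, Gbp2 at 4.44 ± 0.15, Gbp3 at 3.99 ± 0.18, Gbp7 at 3.64 ± 0.17, Gbp6 at 3.40 ± 0.18 and Gbp9 at 2.57 ± 0.15. Gbp8 was higher by 1.17 ± 0.24 (edgeR adjusted p = 0.000427), under the fold threshold, and was over it without AC treated B6 replicate 2 (1.35). Gbp10 had 204 counts over the 3 SjSS samples and 8 over the B6 samples, and Gbp11 had 181 and 11.

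Markers of other cells were low in all of these groups. The 12 thymocyte and T cell markers summed to 13.5 to 18.1 CPM in AC treated SjSS and 10.1 to 11.6 CPM in control SjSS BMDMs, and to 4.29 to 4.97 CPM in AC treated B6 and 7.93 to 9.86 CPM in control B6 BMDMs. Only 2 of these 12 passed the filter, of which Lck was called higher with ACs in SjSS BMDMs and Cd4 higher in AC treated SjSS than B6 BMDMs, and Trac was at 0 counts in control B6 BMDMs. The 5 dendritic cell markers summed to 2.52 to 3.57 CPM in AC treated SjSS and 0.943 to 1.27 CPM in control SjSS BMDMs, with Xcr1 called higher, and the 5 B cell markers to 12.97 to 13.5 and 19.8 to 26.8 CPM, with 0 of 4 tested called by edgeR. The 4 neutrophil markers in the table, of 6 listed, summed to 2.40 to 3.05 and 2.57 to 3.00 CPM, with Camp called higher. The 8 macrophage markers summed to 15200 to 22970 CPM over all samples. Of these, Fcgr1 was called higher with ACs in SjSS and Mrc1 lower with ACs in B6 BMDMs. The interaction of strain and AC was called higher in SjSS for both. Between AC treated SjSS and B6 BMDMs 0 of the 8 were called, while Ccr7, Xcr1 and Camp were called higher in SjSS. With ACs in B6 BMDMs Xcr1 was called higher, and Ccr7 and S100a9 lower. The part of these markers in the strain difference was not tested.

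CpG raised all 4 chromosome 3 members in both strains. They were called higher in each strain, with log2 fold changes of 1.53 (Gbp7) to 4.55 (Gbp5) in B6 and 1.80 (Gbp7) to 3.76 (Gbp5) in SjSS BMDMs. Gbp5 rose from the control values above to 75.9, 109.8 and 88.6 CPM in B6 (edgeR adjusted p = 1.29e-12) and to 59.4, 34.5 and 58.8 CPM in SjSS BMDMs (edgeR adjusted p = 3.01e-11). Gbp2 reached 135.5, 182.5 and 155.7 CPM in B6 and 136.3, 91.8 and 137.5 CPM in SjSS BMDMs, log2 fold changes of 2.95 ± 0.14 and 2.89 ± 0.14 (edgeR adjusted p = 1.69e-12 and 4.18e-12). Treated samples did not overlap with controls for any of the 4.

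The chromosome 5 members responded to CpG in different directions. Gbp6 rose in both strains, to 104.9, 166.5 and 136.9 CPM in B6 and 120.8, 77.8 and 132.7 CPM in SjSS BMDMs, with log2 fold changes of 2.75 ± 0.17 and 2.22 ± 0.17 (edgeR adjusted p = 9.01e-11 and 2.21e-09). Gbp4 rose in B6 (2.05 ± 0.27, edgeR adjusted p = 2.85e-06), while in SjSS BMDMs its change of 1.12 ± 0.28 was short of the fold threshold (edgeR adjusted p = 0.00257), and over it (1.38) without replicate 2 of the CpG treated SjSS group. Gbp8 fell in both, to 0.786, 1.68 and 1.87 CPM in B6 and 1.35, 0.642 and 1.26 CPM in SjSS BMDMs, log2 fold changes of -2.78 ± 0.26 and -2.37 ± 0.27 (edgeR adjusted p = 2.11e-08 and 4.91e-07). Gbp9 had 17.3, 24.1 and 20.97 CPM in B6, where its change was -0.06 (95% interval -0.34 to 0.22, edgeR adjusted p = 0.751), and had 19.8, 13.3 and 21.3 CPM in SjSS BMDMs (-0.46 ± 0.15, edgeR adjusted p = 0.0124), under the fold threshold. Gbp10 had no count in any B6 control and 5, 22 and 2 counts with CpG, most of them in replicate 2. Against an assumed floor of 3 counts over the 3 controls, it was 12.1-fold higher. The lower 95% limit by the exact interval of the counts was 9.23, for counting error only, and Gbp10 was called (edgeR adjusted p = 0.00414). Without replicate 2, 7 counts were left, the value against the same floor was 4.07-fold and the edgeR adjusted p was 0.03645. Gbp11 had 3, 4 and 3 counts with CpG in B6 and 5, 2 and 3 counts in SjSS BMDMs and was called in neither.

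In all, CpG called 7 of 10 members higher and 1 lower in B6 BMDMs, where 5.86% of all tested genes were called higher and 6.88% lower. In SjSS BMDMs it called 5 of 10 higher (6 without replicate 2) and 1 lower, where the shares of all genes were 4.81% and 4.45%. At any fold 6 were higher and 2 lower there, against 27.8% and 26.4% of all genes. Of the 8 members measured in every sample, 6 and 5 were called higher. For 0 of 10 members (0 of those 8) was the interaction of strain and CpG called, where 0.285% of all tested genes were called higher and 0.329% lower. At any fold the number was also 0, against 3.23% and 2.62%. DESeq2 also called 0, and 4 members, Gbp4, Gbp5, Gbp6 and Gbp10, had an unadjusted p under 0.05 by edgeR. The interaction was -0.06 for Gbp2 (95% interval -0.44 to 0.31) and -0.78 for Gbp5 (-1.37 to -0.19, edgeR adjusted p = 0.139).

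Between CpG treated SjSS and B6 BMDMs 0 of 10 members (0 of the 8) were called in either direction, where 1.82% of all tested genes were called higher in SjSS and 0.792% lower. DESeq2 also called 0, and 4 members had an unadjusted p under 0.05 by edgeR. At any fold 0 were higher and 1 lower, against 10.2% and 9.57%. Gbp5 was lower in SjSS by a log2 difference of -0.84 ± 0.17 (edgeR adjusted p = 0.00196), with every SjSS sample under every B6 sample, and by -0.63 (edgeR adjusted p = 0.00871) without replicate 2 of the CpG treated SjSS group. The other members overlapped between the strains, and for the 7 of them measured in every sample the difference lay between -0.53 (Gbp4) and -0.13 (Gbp3). For Gbp2 it was -0.37 (95% interval -0.63 to -0.12, edgeR adjusted p = 0.0504) with all samples and -0.21 without that replicate.

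**Figure D4:**
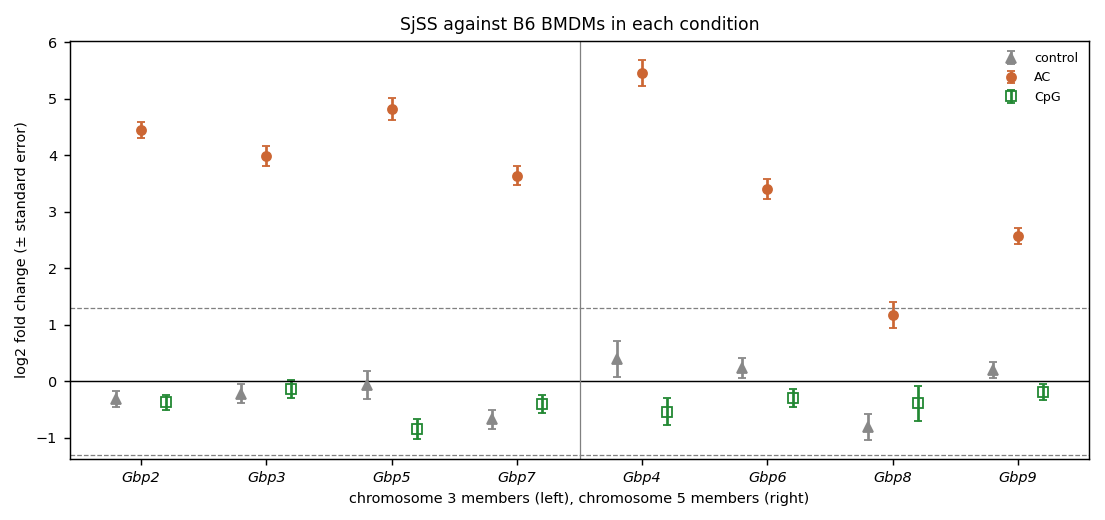
Log2 fold change of SjSS against B6 BMDMs with its standard error, in control (grey triangles), AC (orange circles) and CpG (open green squares) treated BMDMs, for the 8 members measured in every sample; dashed lines stand at 1.3 and -1.3. With ACs the strains are 1.17 (Gbp8) to 5.45 (Gbp4) apart, and in control or with CpG all values lie between -0.84 and 0.40.

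For most members ACs gave less mRNA than CpG in B6 BMDMs and more in SjSS BMDMs. The stimuli differed in kind and in time, so their levels are compared as given. In B6 BMDMs 4 of 10 members, Gbp2, Gbp3, Gbp6 and Gbp7, all among the 8 measured in every sample, were called lower with ACs than with CpG and 0 higher, where 3.47% of all tested genes were called lower and 3.64% higher. At any fold 6 were lower and 1 higher, against 22.4% and 23.7%. Gbp2 had 34.8, 44.7 and 41.4 CPM with ACs and 135.5, 182.5 and 155.7 CPM with CpG, a log2 difference of -1.97 ± 0.14 (edgeR adjusted p = 6.78e-10). Gbp8 was higher with ACs by 1.20 ± 0.27 (edgeR adjusted p = 0.00107), short of the fold threshold, and over it without AC treated B6 replicate 3 (1.32) or CpG treated B6 replicate 2 (1.32) or 3 (1.45), which made 1 member called higher. In SjSS BMDMs all 10 members (and all 8 measured in every sample) were called higher with ACs than with CpG, where 5.38% of all tested genes were called higher and 3.8% lower. The log2 differences of those 8 ran from 2.21 ± 0.17 (Gbp6, edgeR adjusted p = 1.81e-09) to 5.08 ± 0.23 (Gbp4, edgeR adjusted p = 1.84e-12).

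As sums of CPM, both clusters were higher with ACs in SjSS BMDMs, and there the chromosome 3 cluster held more of the counts. These sums are not scaled by exon length, unlike the levels per kilobase above, so the shares below are shares of counts. The 4 chromosome 3 members summed to 55.0, 59.3 and 49.1 CPM in control and 3035, 2828 and 2895 CPM in AC treated SjSS BMDMs. The 6 chromosome 5 members summed to 54.4, 57.3 and 55.6 CPM and 761.6, 678.1 and 757.8 CPM. Their share of the family's summed CPM thus went from 50.7 ± 2.13% in control to 20.1 ± 0.70% in AC treated SjSS BMDMs (SD, n = 3). In B6 BMDMs the share was 42.4 ± 0.65% in control, 34.5 ± 1.25% with ACs and 28.5 ± 1.22% with CpG, and in CpG treated SjSS BMDMs it was 30.4 ± 0.62%. Every treated sample had a lower share than every control of its strain. Gbp5 alone made up 3.46 ± 0.62% of the family's CPM in control and 35.1 ± 1.07% in AC treated SjSS BMDMs. With ACs in SjSS the median log2 fold change was 5.22 over the chromosome 3 members and 3.33 over the 4 chromosome 5 members measured in every sample, and with CpG it was 2.47 and 1.00 in B6 and 2.49 and 0.33 in SjSS BMDMs. Medians over all tested genes lay between -0.04 and 0.00 in these 3 comparisons and in the AC response of B6. The clusters themselves were not tested against each other, since their members are not replicates.

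**Figure D5:**
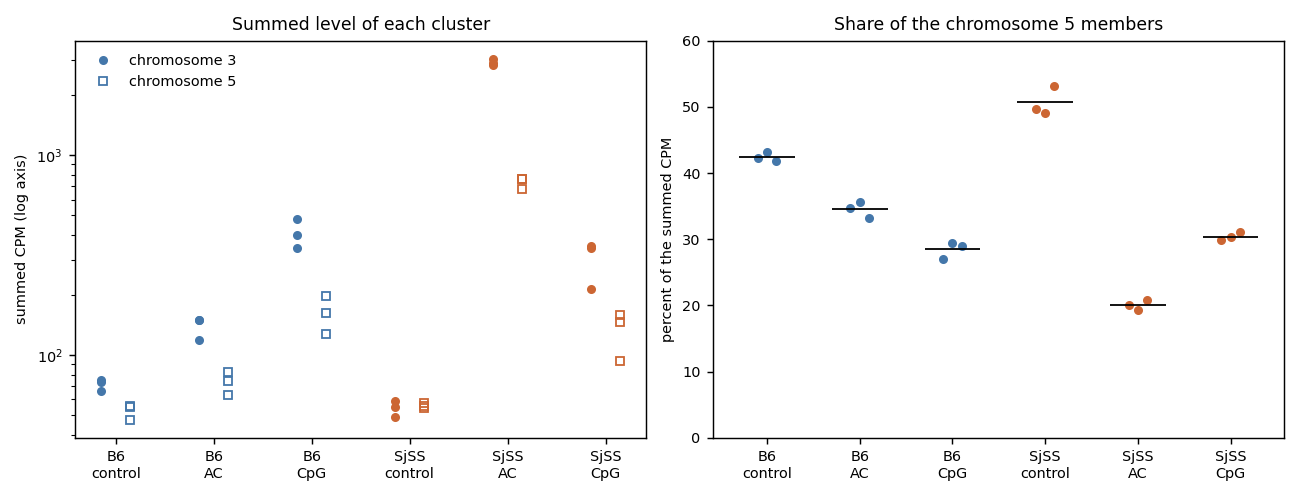
Left, summed CPM of the 4 chromosome 3 members (filled circles) and the 6 chromosome 5 members (open squares) in each sample on a log axis; right, the percent of the summed CPM of all 10 members that came from chromosome 5, with a bar at the mean of 3 samples. The share is 50.7% in control SjSS and 20.1% in AC treated SjSS BMDMs.

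Across the 18 samples most members followed a similar pattern, with Gbp8 as the clearest exception. Pearson's r of log2 CPM with the mean of all members, to which each gene itself contributes, was 0.90 to 0.99 for 9 members and 0.15 for Gbp8. Of these 9, Gbp10 and Gbp11 were kept by the filter because of the AC treated SjSS group, so their r lends no support. Both also enter the mean used for genes outside the family. Gbp2 and Gbp6, on different chromosomes, had an r of 0.99. Gbp9 was less alike, with an r of 0.71 with Gbp2 and 0.70 with Gbp5 and Gbp6. The 18 points share the treatment groups, and the values are given as a description. Outside the family the 5 genes most like the members were Rmdn3, Nmi, Tlr3, Batf2 and Zc3hav1 (r = 0.99 for each, over 18 samples, with a prior count of 2). With a prior count of 0.5 Tlr3 ranked 10 and Zc3hav1 ranked 7, so the choice of the 5 depends on that setting. Tlr3 encodes a receptor for double-stranded RNA, Batf2 an interferon-induced transcription factor and Zc3hav1 the zinc-finger antiviral protein. Batf2 was at 4.29 ± 0.36 CPM in control and 68.9 ± 6.31 CPM in AC treated SjSS BMDMs, and at 3.42 ± 0.34 and 5.82 ± 0.81 CPM in the same groups of B6.

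Upstream of the GBPs, Ifnb1, which encodes interferon-beta, had 26 counts over the AC treated and 5 over the control B6 samples, and 694 and 15 in SjSS BMDMs. It was called higher with ACs in both strains, by a log2 fold change of 2.44 ± 0.82 in B6 (edgeR adjusted p = 0.0250) and 5.61 ± 0.52 in SjSS BMDMs (edgeR adjusted p = 2.33e-08). All 5 counts of the B6 controls came from replicate 3. Ifnb1 passed the filter on low counts through the AC treated SjSS group, so its calls lend no support. It was 1 of 5 listed interferon ligands and receptors in the table, of 10 listed, and the 4 receptor genes Ifnar1, Ifnar2, Ifngr1 and Ifngr2 were called in neither strain. Of 10 interferon signalling kinases and transcription factors, 1 was called higher with ACs in B6 (Irf7) and 7 in SjSS BMDMs, among them Stat2, Irf1 and Irf9. With ACs 2.43% and 7.09% of all tested genes were called higher. Irf1, a factor that binds Gbp promoters, had 75.9, 74.2 and 68.8 CPM in control and 126.3, 131.0 and 126.3 CPM in AC treated B6 BMDMs, and 72.7, 73.4 and 90.4 CPM against 1373, 1453 and 1285 CPM in SjSS BMDMs. With CpG the log2 fold change of Irf1 was 0.35 ± 0.10 in B6 (edgeR adjusted p = 0.00616), under the fold threshold, and 0.11 ± 0.10 in SjSS BMDMs (edgeR adjusted p = 0.370). The part of Irf1 in the level of any member was not tested. With CpG 4 of the 10 kinases and factors were called higher in B6 and 0 in SjSS BMDMs, and 0 lower in each. Of all tested genes 5.86% and 4.81% were called higher. The median log2 fold change of the 10 was 1.00 in B6 and 0.66 in SjSS BMDMs, and for 0 of them was the interaction of strain and CpG called.

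Other interferon-inducible genes gave the following counts, against the shares of all tested genes above. Of 12 antiviral genes of the interferon-beta type, 11 were called higher with ACs in B6 and 12 in SjSS BMDMs. Their median log2 fold changes were 3.06 and 5.75. Of 15 immunity-related and other interferon-inducible GTPases, which act beside GBPs on parasite vacuoles, 8 were called higher with ACs in B6 and 14 in SjSS BMDMs, and 0 lower. Of the 11 tested genes of the interferon-gamma type, 4 were called higher and 3 lower with ACs in B6, and 7 higher and 0 lower in SjSS BMDMs. Of 6 inhibitors of interferon signalling, 3 were called higher with ACs in B6 and 4 in SjSS BMDMs. The interaction of strain and AC was called higher in SjSS for 9 of the 12 antiviral genes and 15 of the 15 GTPases. It was also called higher for 10 of the 11 genes of the interferon-gamma type and 3 of the 6 inhibitors, and lower for 0. The strain difference in the response to ACs was thus not particular to the GBPs. Socs1, which restrains JAK kinases, rose by a log2 fold change of 1.95 ± 0.17 in B6 (edgeR adjusted p = 2.92e-08) and 7.31 ± 0.18 in SjSS BMDMs (edgeR adjusted p = 2.62e-16).

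Of 11 genes of the inflammasome and cell death pathway that GBPs feed, 2 were called higher with ACs in B6 and 5 in SjSS BMDMs, and 0 lower. The shares of all tested genes called higher were 2.43% and 7.09%. Casp4, which encodes caspase-11, the sensor of lipopolysaccharide in the cytosol, had 8.61 ± 0.74 CPM in control and 95.2 ± 5.19 CPM in AC treated SjSS BMDMs (SD, n = 3), a log2 fold change of 3.47 ± 0.09 (edgeR adjusted p = 4.77e-16). Aim2, the DNA sensor, was higher by 1.28 ± 0.08 in SjSS BMDMs (edgeR adjusted p = 1.27e-10), just short of the fold threshold. Gsdmd, which encodes the pore-forming gasdermin D, was higher by 0.60 ± 0.05 (edgeR adjusted p = 1.96e-09), also short of it. Of the 10 genes of the ATG8 conjugation pathway, which places GBPs on vacuoles, 0 were called in any of the 11 comparisons. In those comparisons 0.285% to 7.09% of all tested genes were called in a given direction, so 0 of 10 is near these shares. The summed level of the 10 genes was 851.5 to 1071 CPM over the 18 samples.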

How the data were processed

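RNA-seq of 18 BMDM samples was analysed, 3 in each of 6 groups taken from the labels. The deposited values are the authors' estimated counts per gene (STAR alignment to mm10, then Partek E/M quantification), without normalization, and 41.1% of values were not whole (tolerance 1e-06). An estimate of this kind divides reads that fit several genes. Counts were rounded and analysed with R 4.3.3 and edgeR 4.0.16. filterByExpr kept 15789 genes, totals were TMM scaled, and 1 quasi-likelihood model with 6 group means was fitted to all samples, for 11 comparisons with Benjamini-Hochberg adjustment over all tested genes. The thresholds are those of the study's methods. Alternatives were DESeq2 1.42.0, its size factors, other filters and fold thresholds, fits of the compared groups only, a replicate block, each sample left out, and a prior count of 0.5. The pipeline was tested on simulated data. Genes most like the members had the highest r with the mean of standardised log2 CPM (prior count 2) of the members. The named genes were the 10 members, these 5 genes and Gbp2b, and a fixed selection from lists of pathway and marker genes. Lck, Cd4, Xcr1, Camp, Fcgr1, Mrc1, Ccr7 and S100a9 were named after their values were seen. Members, lists and tests were chosen with earlier results of these data known. Exact intervals of count ratios and floors cover counting error only. The 95% intervals of log2 fold changes come from the standard errors of the quasi-likelihood model. Since it is not known which samples share a mouse, p-values measure the spread between these samples. Chromosome 5 promoters and protein sequences were not analysed here. The authors' other assays were not used.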

Additional observations from a re-analysis of the deposited data

Results flagged for a closer look

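The response to ACs differed between SjSS and B6 BMDMs for 9 of the 10 members by the interaction term of edgeR's quasi-likelihood test, each higher in SjSS, and for 8 of the 8 measured in every sample, where 4.76% of all tested genes were called higher and 2.77% lower. On the log2 scale the difference was 4.75 for Gbp2, 4.21 for Gbp3, 4.88 for Gbp5 and 4.31 for Gbp7 on chromosome 3. On chromosome 5 it was 5.05 for Gbp4, 3.16 for Gbp6, 1.98 for Gbp8 and 2.36 for Gbp9. It was 6.06 for Gbp11, which had 3 counts over the SjSS controls, 14 over the B6 controls and 11 over the AC treated B6 samples. Gbp11 passed the filter on low counts only through the AC treated SjSS samples, so its call lends no support. Of these 9, Gbp8 differs in kind: it was lower with ACs in B6 BMDMs (-1.58) and did not pass the test in SjSS BMDMs (0.40).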

How the results depend on the processing

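Across the 11 comparisons, 168 counts of members called under another setting stayed within 1.5 times the reported count and 8 did not. Without a fold threshold, members called higher with ACs in B6 BMDMs became 5, those lower with CpG in SjSS BMDMs 2, those lower in SjSS controls 2, those lower in CpG treated SjSS against B6 BMDMs 1, and those higher with ACs than with CpG in B6 BMDMs 1. With a log2 fold change over 2, the members lower with ACs in B6 BMDMs and those lower with ACs than with CpG in B6 BMDMs became 0. DESeq2 called 2 members higher with ACs in B6 BMDMs, and the added member was not one of the 8 measured in every sample. It was Gbp10, with 8 counts over the AC samples and 0 over the controls, since Gbp11 had 11 and 14. Leaving out 1 sample gave 1 to 2 members higher with ACs in B6 BMDMs, and 0 to 1 higher with ACs than with CpG in B6 BMDMs. Changes that were not called turned sign in 15 instances where 1 sample was left out. The ranges over such fits were -0.15 to 0.037 for Gbp7 with ACs in B6, -0.18 to 0.060 for Gbp9 with CpG in B6, -0.23 to 0.075 for Gbp5 between controls, -0.16 to 0.10 and -0.063 to 0.29 for the CpG interaction of Gbp2 and Gbp3, -0.28 to 0.077 for Gbp3 between CpG treated strains, and -0.18 to 0.052 for Gbp9 between ACs and CpG in B6. No called change turned sign under the alternatives run.

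Of all tested genes, with no fold threshold 3157 genes were higher with ACs in B6 and 4512 in SjSS BMDMs, against 383 and 1119. Deviations from the group means were correlated between samples of the same strain in different groups. With the same replicate number r was 0.0198 to 0.264 (median 0.0901, 18 pairs, 9 over 0.1). With different numbers it was -0.252 to 0.0745 (median -0.0521, 36 pairs). Of 18 samples, 17 correlated best with their own number. The sources do not state a pairing, so the numbers were not taken as pairs in the main fit, and whether same-numbered samples share a mouse was not tested. The fit with the replicate block called 1, 9, 7 and 5 members higher with ACs in B6 and SjSS and CpG in B6 and SjSS BMDMs, the counts without it. TMM and DESeq2 size factors differed by at most 0.0345 on the log2 scale. Depth limits Gbp10 and Gbp11, with 0 to 29 counts a group outside AC treated SjSS BMDMs.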
